A study of Mus musculus with 9 samples.

Results

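Transcripts known as readouts of the tumour suppressor p53 and of the Gadd45 stress genes were followed in mouse hearts. The members were taken by symbol from the deposited gene counts: Cdkn1a, Mdm2, Ccng1, Bax, Bbc3, Phlda3, Sesn1, Gadd45a, Gadd45b and Gadd45g, which are 10 of the 13890 genes in the table. All 10 were among the 13364 genes that passed the filter on low counts and were tested. The hearts came from male NSG mice, which lack the lymphocytes that would reject human cells, aged 8 weeks at the start and kept for about 3 weeks. The animals formed 3 groups of 3. Sham animals (S, animals 2, 3 and 5) underwent the operation without tumour cells and received saline weekly. Tumour hosts (T, animals 11, 12 and 15) were injected in the spleen with HCT116, a human colorectal cancer line that forms liver metastases by this route, and also received saline. Treated tumour hosts (A + T, animals 20, 21 and 22) carried the same tumours and received ACVR2B/Fc weekly, a soluble decoy receptor that binds activins, myostatin and related ligands. No library analysed here carries a label of ACVR2B/Fc without tumour.

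The p53 protein is a transcription factor that DNA damage and other stresses stabilise. It binds pairs of short half-sites near its targets, which halt the cell cycle, repair DNA, lower growth signalling or promote apoptosis, and it also switches on Mdm2, the ubiquitin ligase that removes it. The Gadd45 proteins are small acidic partners of cell cycle and stress kinase proteins, and many of these genes are also controlled without p53, for example by FoxO, ATF4, NF-kappaB or SMAD factors. In skeletal muscle, Cdkn1a and Gadd45a are known to be induced by disuse and denervation.

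The libraries held between 12392222 and 19732471 counts, so that 3 counts corresponded to between 0.152 and 0.281 CPM, a count divided by the scaled total of its library. The ribosomal precursor Rn45s took between 4.57% and 19.6% of the counts. All 7 cardiomyocyte markers were detected, with summed levels from 43513 to 65540 CPM. Summed airway transcripts reached 166 CPM in animal 12 of T and 1079 CPM in animal 22 of A + T, against at most 2.89 CPM in S. Animal 12 had counts of Scgb1a1 (1345), Scgb3a1 (394) and Bpifa1 (1054). In animal 22 the sum was nearly all Scgb1a1 (17508 counts), with Scgb3a1 at 7 and Bpifa1 at 0. The calls without both libraries, called airway-bearing below, are given for the members and, in part, for the lists. The labels also need a caution. Over a gene list that the study published, the differences found here between libraries labelled T and S followed the list's column for ACVR2B/Fc without tumour against sham and not its column for tumour against sham. Those between A + T and S followed the sum of the list's columns for tumour against sham and for treated against untreated tumour hosts. The mismatch thus concerns T, either in its libraries or in the list's columns. Whether the libraries labelled T or the list carry the wrong name cannot be told apart, and these libraries may come from tumour-free hearts given ACVR2B/Fc, so T stands for the libraries labelled T throughout.

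The promoters of the members were searched for the short half-site that p53 recognises, given here as the sequence the members share or lack close to a start site. RefSeq windows (build GRCm38.p6) of 300 bases, from 250 before to 50 after a start, were found for all 10 members, 14 windows in all. A p53 half-site was matched in 6 of the 14 windows, 1 each for Cdkn1a, Mdm2, Ccng1, Bax, Sesn1 and Gadd45a, and in 8.36% of 32817 mouse windows. The stretches around the matches are printed along the gene's strand, with the half-site in capitals.
Cdkn1a, chr17:29090886-29090957, plus strand: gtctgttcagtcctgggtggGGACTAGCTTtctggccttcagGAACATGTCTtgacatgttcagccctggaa
Mdm2, chr10:117710915-117710964, minus strand: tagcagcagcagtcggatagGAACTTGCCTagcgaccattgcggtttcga
Ccng1, chr11:40755442-40755491, minus strand: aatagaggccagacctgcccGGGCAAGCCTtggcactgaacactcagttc
Bax, chr7:45467070-45467119, minus strand: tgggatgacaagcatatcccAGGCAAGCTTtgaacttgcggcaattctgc
Sesn1, chr10:41887246-41887295, plus strand: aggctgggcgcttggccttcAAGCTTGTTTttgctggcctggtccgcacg
Gadd45a, chr6:67037418-67037467, minus strand: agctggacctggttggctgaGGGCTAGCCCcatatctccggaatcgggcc

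The Cdkn1a window held 2 half-site matches, which began 73 and 51 bases before the upstream start, and that start lies 2790 bases before the other start of the gene. Only exact matches were marked, so a half-site with a mismatch, beside these or elsewhere, stays in lower case. Whether marked matches form a pair was not examined. The Gadd45a match began 40 bases before its start, whereas those of Mdm2, Ccng1, Bax and the second Sesn1 start lay between 173 and 201 bases upstream. Other motifs were searched as well. The FoxO heptamer TGTTTAC occurred in windows of Mdm2, Bbc3 and Sesn1 and in 3.65% of all windows. The ATF4 composite element TGATGNAA occurred for Gadd45g and in 3.97% of windows, the E-box CACGTG for Bax, Bbc3, Gadd45b and Gadd45g and in 7.15%, and TATAAA for Gadd45b and Gadd45g and in 13.6%. The AP-1 letters TGANTCA (7.81% of windows) and the CRE letters TGACGTCA (1.79%) were in none of the members' windows. Both strands were searched, and a match describes letters and not binding. No binding was measured in these hearts.

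The members covered a wide range of levels. On the deposited scale, a log2 value per gene length that allows genes to be compared, Ccng1 averaged 8.44 over the 9 libraries and ranked above 98.8% of all genes. Sesn1 followed at a level of 5.49, Cdkn1a at 4.81 and Mdm2 at 4.09. Bax at 3.60 and Gadd45a at 3.46 lay close together, then Gadd45b at 2.82, Gadd45g at 2.49 and Phlda3 at 1.87. Bbc3 was lowest at 1.05, above 28.9% of genes. Its counts ran from 26 to 97 per library, so that its small differences were poorly resolved. The median coefficient of variation of the members among the 3 animals of a group was 11% for S, 22.2% for T and 10.9% for A + T, against 8.55%, 10.5% and 11.8% over all genes.

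**Figure D1:**
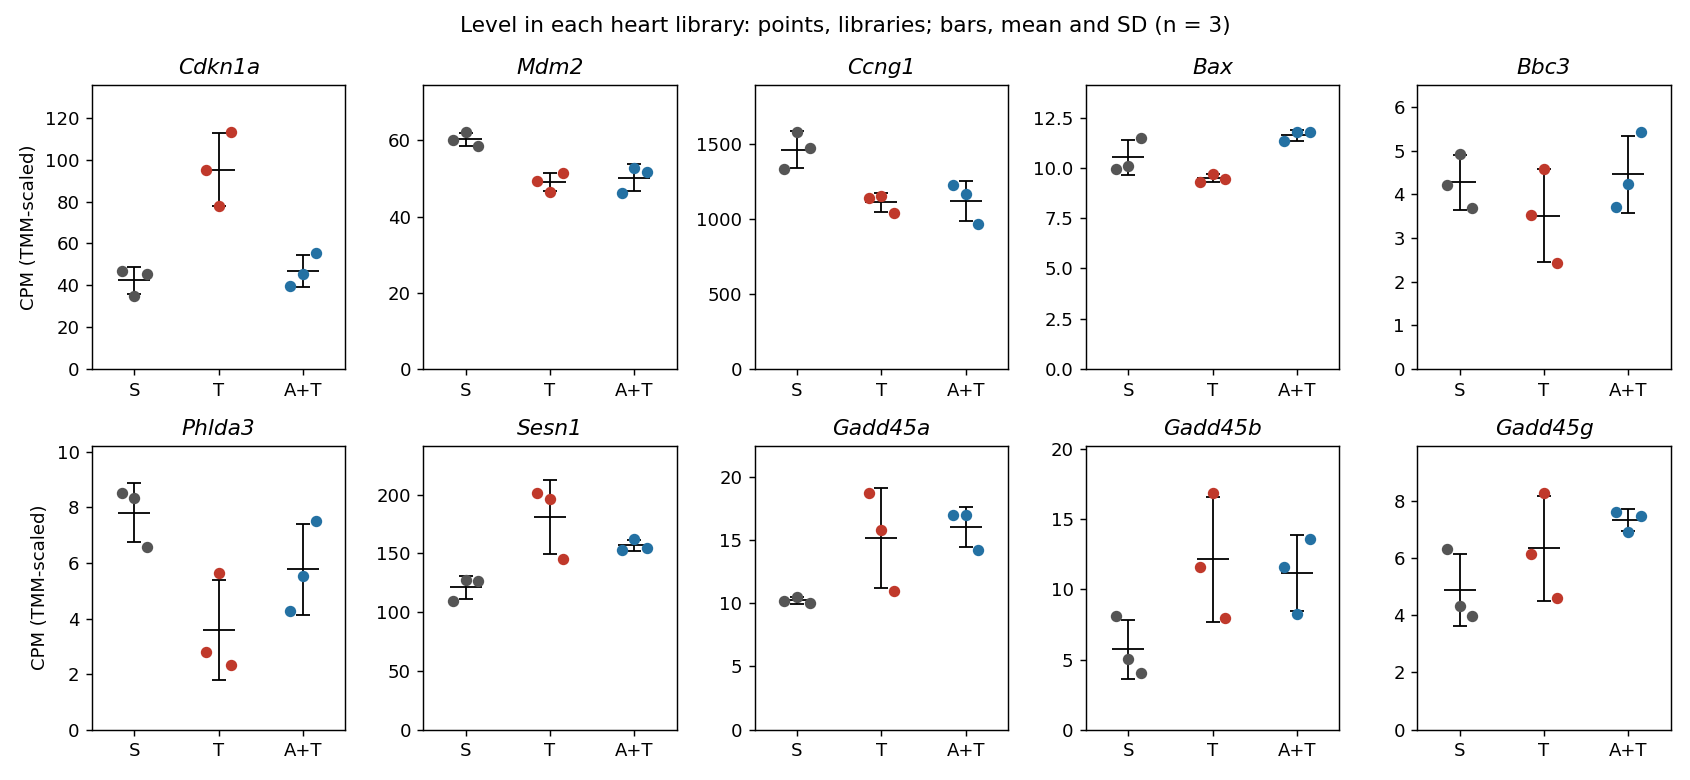
TMM-scaled CPM of each member (y axes start at 0) in the 3 libraries of each group. Points are libraries and bars are the mean and SD. The 3 Cdkn1a points of T lie between 77.9 and 113 CPM, above the other 6, whereas the T points of Gadd45b and Phlda3 are spread widely.

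For T vs. S, 7 of the 10 members passed an adjusted P-value of 0.05 by edgeR, where 21.2% of all genes tested did. This count fell to 2 without animal 3 of S or without animal 11 of T, and to 3 with scaling by library totals only. Cdkn1a, Sesn1, Gadd45a and Gadd45b were higher in T and Mdm2, Ccng1 and Phlda3 were lower, where 1371 of all genes were called higher and 1467 lower. The members thus did not move in 1 direction, and their median log2 fold change was 0.12 against -0.0038 over all genes. The median size of the log2 fold change without its sign was 0.487 for the members and 0.231 for all genes. The members were chosen with earlier results of these data known, so that these comparisons with all genes are a description only. The groups did not overlap for 7 members, namely Bax and all those called except Gadd45b, where 42.6% of all genes did not overlap. With the cut-offs used by the study, a fold of 1.5 or more and P under 0.05 before adjustment, 3 members were called (Cdkn1a and Gadd45b higher, Phlda3 lower), against 14.2% of all genes. These are whole hearts, in which fewer cells of a type and less RNA per cell cannot be told apart.

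The 3 groups give only 2 independent differences, because each comparison of A + T shares libraries with T vs. S. For A + T vs. T, 1 of 10 members passed the test, Cdkn1a, which was lower in A + T, where 5.88% of all genes were called (413 higher and 373 lower). The same gene was the 1 call at the study's thresholds (8.11% of all genes). Cdkn1a and Bax did not overlap between these groups, where 25.4% of genes did not. For A + T vs. S, 1 member was called, Gadd45a, which was higher in A + T, where 8.31% of all genes were called (624 higher and 486 lower). The study's thresholds called Gadd45a and Gadd45b higher (8.91% of all genes). In the same comparison 6 members did not overlap, Mdm2, Ccng1, Sesn1 and the 3 Gadd45 genes, where 32.4% of genes did not.

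**Figure D2:**
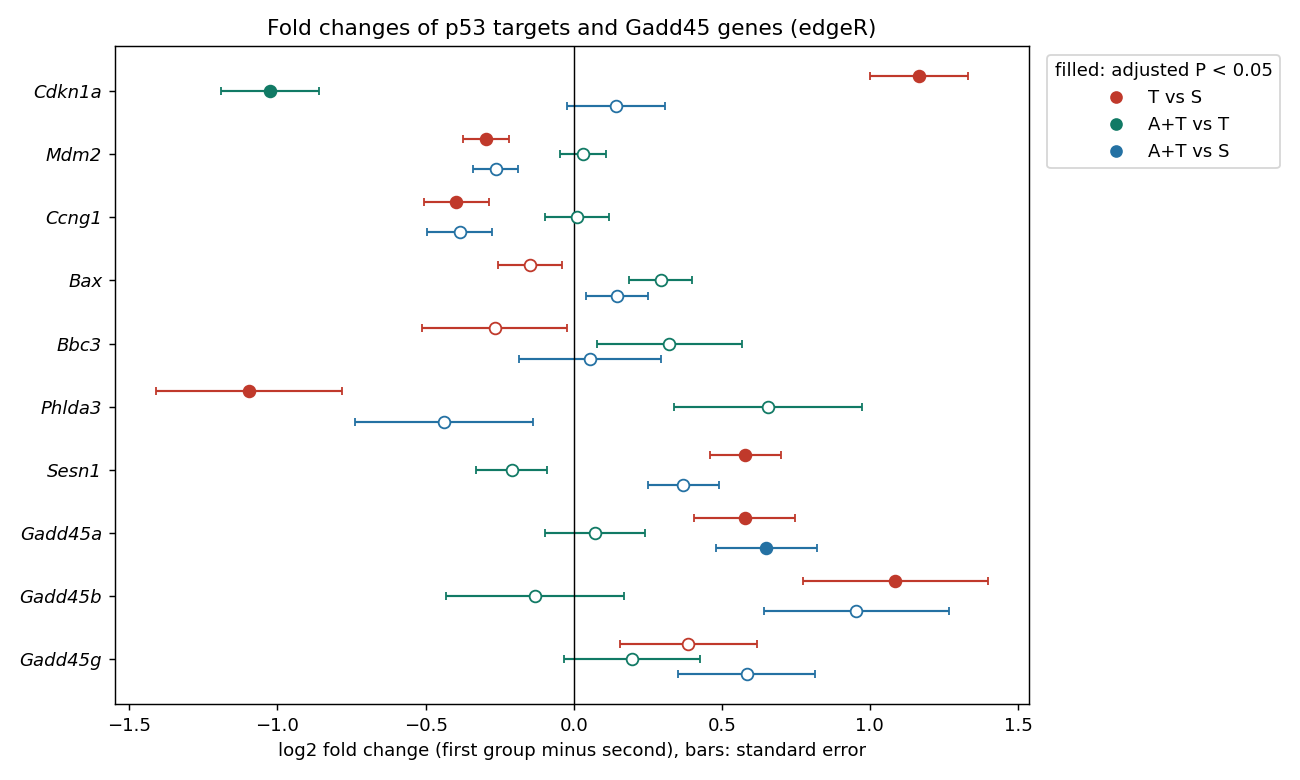
Log2 fold change (x axis) of each member from edgeR, with T vs. S in red, A + T vs. T in green and, in blue, A + T vs. S. Bars are the standard error and filled points have an adjusted P-value under 0.05, as 7 red, 1 green and 1 blue point do.

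Cdkn1a, on chromosome 17 (29090979 to 29100722), encodes p21, which inhibits cyclin-dependent kinases and arrests the cell cycle. Its level was 46.8, 35.0 and 45.6 CPM in S, 94.9, 77.9 and 113 CPM in T and 39.8, 45.2 and 55.2 CPM in A + T, in the order of the animal numbers. All T hearts were above all others, and S and A + T overlapped. The mean rose 2.24-fold from 42.4 ± 6.50 CPM (SD, n = 3) in S to 95.3 ± 17.6 CPM in T, a log2 fold change of 1.17 (SE 0.17, adjusted P = 0.00118 by edgeR). It fell by 1.02 on the log2 scale in A + T vs. T (SE 0.16, adjusted P = 0.00895), to 46.8 ± 7.80 CPM. The A + T vs. S log2 fold change was 0.14 (SE 0.17, adjusted P = 0.625). Both calls held in each of 9 fits that left out 1 library, with a highest adjusted P of 0.00699 for T vs. S and of 0.0484 for A + T vs. T.

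Ccng1 encodes cyclin G1, which recruits a phosphatase to Mdm2, and lies on chromosome 11 (40748552 to 40755309). It was by far the most abundant member, at 1333, 1579 and 1475 CPM in S, 1141, 1154 and 1038 CPM in T and 1225, 1166 and 969 CPM in A + T. Every S heart was above every heart of the other two groups, and T and A + T overlapped. Ccng1 fell by 0.40 on the log2 scale in T vs. S (SE 0.11, adjusted P = 0.0279 by edgeR). In A + T vs. S the difference was -0.39 (adjusted P = 0.0563). Without animal 3 or 5 of S or animal 11 or 15 of T the T vs. S call was lost, at adjusted P-values from 0.0644 to 0.105.

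Mdm2, the ubiquitin ligase that closes the p53 feedback loop, lies on chromosome 10 (117688875 to 117710758). It read 60.0, 62.1 and 58.6 CPM in S, 49.4, 46.5 and 51.4 CPM in T and 46.3, 52.7 and 51.7 CPM in A + T. The 3 S hearts were again highest, with narrow spreads in all groups. Mdm2 fell by 0.30 on the log2 scale in T vs. S (SE 0.077, adjusted P = 0.0210 by edgeR), which is opposite in sign to Cdkn1a, another target of p53. The A + T vs. T difference was 0.03 (adjusted P = 0.845) and the A + T vs. S difference -0.26 (adjusted P = 0.0597). Leaving out animal 2 or 3 of S or animal 11 or 12 of T ended the T vs. S call, at adjusted P-values from 0.0589 to 0.0732.

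Bax and Bbc3 encode promoters of apoptosis, a pore-forming protein of the mitochondrial membrane and the BH3-only protein PUMA. Bax was at 9.95, 10.1 and 11.5 CPM in S, 9.29, 9.69 and 9.45 CPM in T and 11.3, 11.8 and 11.8 CPM in A + T. The T hearts were lowest and did not overlap with either group, but no difference passed the test, with log2 fold changes of -0.15 for T vs. S (adjusted P = 0.354 by edgeR), 0.29 for A + T vs. T (adjusted P = 0.134) and 0.15 for A + T vs. S (adjusted P = 0.408). Bbc3 was at 4.20, 4.92 and 3.69 CPM in S, 3.53, 4.58 and 2.43 CPM in T and 3.71, 4.24 and 5.42 CPM in A + T. All 3 groups overlapped, and its log2 fold changes were -0.27 (adjusted P = 0.472), 0.32 (adjusted P = 0.478) and 0.06 (adjusted P = 0.908) in the same order.

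Phlda3, on chromosome 1 (135766085 to 135769134), encodes a pleckstrin homology protein that competes with Akt for membrane lipids. It was at 8.52, 8.32 and 6.58 CPM in S, 2.79, 5.65 and 2.34 CPM in T and 4.27, 5.53 and 7.52 CPM in A + T. The T hearts were below the S hearts, animal 12 by the least, and A + T overlapped with both. Phlda3 fell by 1.10 on the log2 scale in T vs. S (SE 0.31, adjusted P = 0.0314 by edgeR). Its A + T vs. T difference of 0.66 had an SE of 0.32 (adjusted P = 0.253), and its A + T vs. S difference was -0.44 (adjusted P = 0.386). Without animal 2 or 3 of S or animal 11 or 15 of T, the T vs. S call was lost at adjusted P-values from 0.0879 to 0.116. Without animal 12 the T vs. S value was -1.60 (adjusted P = 0.00536).

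Sesn1, on chromosome 10 (41810574 to 41908436), encodes a sestrin, which restrains mTORC1 and is also a known FoxO target. It was at 110, 128 and 126 CPM in S, 201, 197 and 145 CPM in T and 153, 162 and 155 CPM in A + T. All hearts of T and of A + T were above all S hearts, and animal 15 was the lowest of the T hearts and below those of A + T. Sesn1 rose by 0.58 on the log2 scale in T vs. S (SE 0.12, adjusted P = 0.00760 by edgeR), and this call held in 9 of 9 fits without 1 library. The A + T vs. S difference was 0.37 (SE 0.12, adjusted P = 0.0845) and the A + T vs. T difference -0.21 (adjusted P = 0.335).

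The Gadd45 genes encode 3 related proteins. Gadd45a, on chromosome 6 (67035096 to 67037407), was at 10.2, 10.5 and 9.98 CPM in S, 18.7, 15.8 and 10.9 CPM in T and 17.0, 16.9 and 14.2 CPM in A + T. The S hearts were tightly grouped below all others, and animal 15 of T lay just above them. Gadd45a rose by 0.58 on the log2 scale in T vs. S (SE 0.17, adjusted P = 0.0359 by edgeR) and 1.57-fold in A + T vs. S (log2 fold change 0.65, SE 0.17, adjusted P = 0.0433), and the A + T vs. T difference was 0.07 (adjusted P = 0.841). The T vs. S call was lost without any 1 of the S hearts or without animal 11 or 12 of T (adjusted P from 0.0860 to 0.143). The A + T vs. S call was lost without any 1 of the S hearts, animal 12 of T, or animal 20 or 21 of A + T (adjusted P from 0.0533 to 0.128), although its log2 fold change stayed between 0.61 and 0.74.

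Gadd45b, on chromosome 10 (80930091 to 80932204), was at 8.07, 5.08 and 4.05 CPM in S, 11.6, 16.9 and 7.95 CPM in T and 11.6, 8.26 and 13.6 CPM in A + T. Animal 15 of T was below the highest S heart, and A + T lay above S by a narrow gap. The log2 fold change was 1.09 in T vs. S (SE 0.31, adjusted P = 0.0323 by edgeR), 0.95 in A + T vs. S (SE 0.31, adjusted P = 0.0855) and -0.13 in A + T vs. T (adjusted P = 0.840). The T vs. S call was lost without animal 3 or 5 of S or animal 11 or 12 of T (adjusted P from 0.0724 to 0.117), and also without both airway-bearing libraries, at a log2 fold change of 0.78 (adjusted P = 0.0650). Gadd45g, on chromosome 13 (51846675 to 51848475), was at 6.30, 4.31 and 3.98 CPM in S, 6.13, 8.26 and 4.58 CPM in T and 7.61, 6.89 and 7.46 CPM in A + T. The A + T hearts lay above S, but no difference passed the test, with values of 0.39 in T vs. S (adjusted P = 0.262), 0.20 in A + T vs. T (adjusted P = 0.656) and 0.58 in A + T vs. S (adjusted P = 0.140). Animal 15 had the lowest level in T of all 3 Gadd45 genes and of Sesn1, and the highest of Cdkn1a. Its library also held the fewest counts of all libraries and 19.5% Rn45s, against 4.57% and 5.18% in animals 11 and 12. A fit without the counts of Rn45s kept all 7 T vs. S calls, with log2 fold changes of 0.58 for Gadd45a, 1.09 for Gadd45b and 0.59 for Sesn1. The part of depth, and of other differences between libraries that go with the Rn45s share, was not tested.

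**Figure D3:**
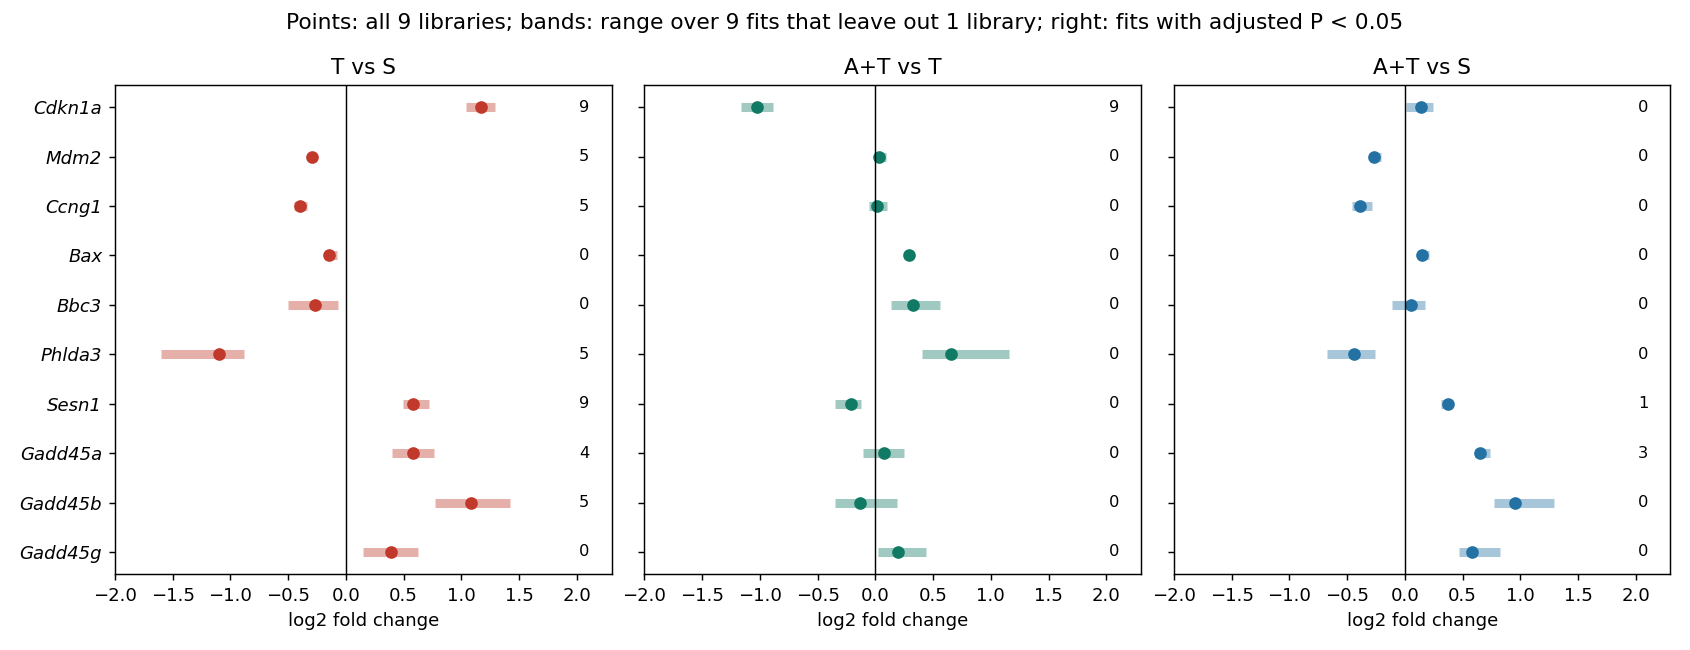
Log2 fold change (x axis) of each member with all 9 libraries (points) and its range over the 9 fits that leave out 1 library (bands), with the number of those fits in which the adjusted P-value was under 0.05 at the right. Cdkn1a held 9 of 9 in T vs. S and in A + T vs. T, Sesn1 9 of 9 in T vs. S, and Gadd45a 3 of 9 in A + T vs. S.

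In T vs. S the genes above the members in the pathway were called in both directions as well. Of p53 and its regulators, 11 of 15 listed genes were tested, of which in T vs. S 2 rose, 2 fell and 7 did not pass. Trp53, which encodes p53, fell by 0.60 on the log2 scale (SE 0.10, adjusted P = 0.00271 by edgeR), from 16.1 ± 0.348 CPM in S to 10.6 ± 0.950 CPM in T. Chek2, a kinase that activates p53 after DNA breaks, fell by 1.88 (adjusted P = 0.00124), from 8.04 ± 1.92 to 2.18 ± 0.774 CPM. Mdm4, an Mdm2 relative that restrains p53, rose by 0.39 (adjusted P = 0.0114), and Trp63, a p53 relative at low level, by 1.23 (adjusted P = 0.0364). In A + T vs. T, Trp53 rose by 0.40 (adjusted P = 0.0470) and Chek2 by 1.53 (adjusted P = 0.0146), and 9 did not pass. In A + T vs. S, Mdm4 rose by 0.49 (adjusted P = 0.0113) and 10 did not pass. Of all genes, 21.2% passed in T vs. S, 5.88% in A + T vs. T and 8.31% in A + T vs. S. The list's median log2 fold changes in these comparisons were 0.19, -0.06 and 0.01, against -0.0038, 0.0098 and 0.0034 over all genes. In fits that left out 1 library, Trp53, Chek2 and Mdm4 kept their T vs. S calls in 9 of 9, and Trp63 lost its own without animal 2 or 5 of S or animal 11 or 12 of T (adjusted P from 0.0501 to 0.142). The A + T vs. T call of Trp53 was kept in 1 of 9, without animal 22, and was otherwise lost at adjusted P-values from 0.0737 to 0.119, that of Chek2 was lost without animal 11 (adjusted P = 0.0603), and the A + T vs. S call of Mdm4 without animal 2 (adjusted P = 0.0541).

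Of 34 other known p53 targets listed, 30 were tested. In each comparison 4 of the 30 were called, where 21.2% of all genes were called in T vs. S, 5.88% in A + T vs. T and 8.31% in A + T vs. S. In T vs. S 2 rose, 2 fell and 26 did not pass, with a median of -0.07. Perp, a desmosome protein linked to apoptosis, rose by 0.60 (adjusted P = 0.000772 by edgeR) and the death receptor Fas by 1.21 (adjusted P = 0.00338), whereas Trp53i11 fell by 1.40 (adjusted P = 0.000231) and the adenylate kinase Ak1 by 0.29 (adjusted P = 0.0393). Against T, in A + T 3 rose, 1 fell and 26 did not pass (median 0.11). Rap2b rose by 0.78, Trp53i11 by 0.70 and the apoptosome scaffold Apaf1 by 0.65, whereas Perp fell by 0.51 (adjusted P = 0.00754). Perp thus followed the same order of groups as Cdkn1a, at 131 ± 5.0 CPM for S, 199 ± 12.2 CPM for T and 140 ± 6.96 CPM for A + T. Against S, in A + T Fas rose by 1.05 (adjusted P = 0.0172), 3 fell (Trp53i11, the nuclease Aen and the phosphatase Tigar, by 0.70, 0.51 and 0.39) and 26 did not pass, with a median of 0.08. Perp kept both calls in 9 of 9 fits without 1 library, and Fas and Trp53i11 kept theirs in T vs. S. Ak1 was called in 1 of 9, without animal 22 (otherwise adjusted P from 0.0541 to 0.123), and in A + T vs. T Apaf1 in 1 of 9, without animal 5 (otherwise 0.0529 to 0.138). Rap2b was lost without animal 11 or 20 (0.0581 to 0.0854) and Trp53i11 in A + T vs. T without any of animals 11, 12, 15, 20 and 21 (0.0537 to 0.0697). Against S, the A + T calls of Fas (0.0595 to 0.0807), Trp53i11 (0.0624 to 0.0649) and Tigar (0.0536 to 0.0984) were lost without animal 2 or 3, and that of Tigar also without animal 20. Without both airway-bearing libraries 3 rose and 5 fell in T vs. S.

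Of the relatives of the members, 8 of 9 were tested. In T vs. S 4 rose, Ccng2 (0.50), Ccni (0.44), Cdkn1b (0.43) and Mdm4 (0.39), 2 fell, Phlda1 (-0.98) and Cdkn1c (-0.57), and 2 did not pass. Cyclin G2, encoded by Ccng2, thus rose where its relative Ccng1 fell, and Cdkn1b and Cdkn1c, the other two inhibitors of the p21 family, differed in sign. Between A + T and T none of these 8 passed by edgeR, with log2 fold changes of 0.21 for Ccng2 (adjusted P = 0.261) and -0.23 for Ccni (adjusted P = 0.109). At an unadjusted P under 0.05 there was 1, and DESeq2 called 1 lower. Ccng2 (0.71), Mdm4 (0.49) and Cdkn1b (0.48) rose in A + T vs. S, Phlda1 fell by 1.03 and 4 did not pass. The medians of the list were 0.19, 0.13 and 0.18, and the shares of all genes that passed were 21.2%, 5.88% and 8.31%. Cdkn1c lost its call without animal 2, 3, 11 or 15 (adjusted P from 0.0672 to 0.0795) and Cdkn1b in A + T vs. S without animal 2 or 3 (adjusted P = 0.0609 in both fits).

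The Bcl-2 family, to which Bax and Bbc3 belong, held 14 tested genes of 16 listed. The shares of all genes called were 21.2% in T vs. S, 5.88% in A + T vs. T and 8.31% in A + T vs. S. In T vs. S 3 of the 14 rose and 11 did not pass (median 0.07). Bnip3, a mitophagy receptor of this family, rose by 1.25 (adjusted P = 8.89e-05 by edgeR), from 134 ± 4.68 to 318 ± 28.2 CPM. The survival genes Bcl2l1 and Mcl1 rose by 1.15 (adjusted P = 0.00768) and 0.60 (adjusted P = 0.00231). In A + T vs. T, Bnip3 fell by 0.70 (adjusted P = 0.00609) and 13 did not pass (median 0.10), and in A + T vs. S it rose by 0.54 (adjusted P = 0.0118) and 13 did not pass (median 0.25). At an unadjusted P under 0.05 there were 6 of the 14 in A + T vs. T and 5 in A + T vs. S. DESeq2 called 2 lower in A + T vs. T and 3 higher in A + T vs. S. Of the Gadd45 partners in stress kinase signalling, 11 of 12 were tested. The p38 kinase gene Mapk14 fell by 0.30 in T vs. S (adjusted P = 0.0194) and the other 10 did not pass, and no partner passed by edgeR or by DESeq2 in the other two comparisons, where 0 in A + T vs. T and 3 in A + T vs. S had an unadjusted P under 0.05. The medians were 0.01, -0.08 and -0.09. Without animal 5 of S or animal 12 of T the Mapk14 call was lost (adjusted P from 0.0674 to 0.0738), whereas those of Bnip3, Bcl2l1 and Mcl1 in T vs. S and of Bnip3 in A + T vs. T held in 9 of 9 fits. Bnip3 in A + T vs. S was lost without animal 2 or 3 (adjusted P from 0.0504 to 0.0598).

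Cell cycle genes that p21 is known to hold down through the DREAM complex were low in these hearts, with 12 of 21 tested and a summed level of the 17 in the table from 42.5 to 64.3 CPM. In T vs. S, Top2a, a topoisomerase of dividing cells, fell by 1.53 (adjusted P = 0.0235 by edgeR) from counts of 24 to 33 per S library to counts of 6 to 10 per T library, and 11 did not pass. The median was -0.41. In A + T vs. T, Top2a rose by 1.70 (adjusted P = 0.0387) and the proliferation marker Mki67 by 0.93 (adjusted P = 0.0426), 10 did not pass and the median was 0.79. In A + T vs. S, Mki67 rose by 0.93 (adjusted P = 0.0335), 11 did not pass and the median was 0.29. Of all genes, 21.2% passed in T vs. S, 5.88% in A + T vs. T and 8.31% in A + T vs. S. Several of these calls depended on which library was left out, while the log2 fold changes kept their sign (Top2a -1.85 to -1.25 in T vs. S and 1.4 to 2.0 in A + T vs. T, Mki67 0.76 to 1.05 in A + T vs. T). Top2a in T vs. S was lost without animal 3 or 5 of S or animal 11 or 12 of T (adjusted P from 0.0540 to 0.0916). Top2a in A + T vs. T was kept in 3 of 9 fits, without animal 5, 15 or 22 (otherwise adjusted P from 0.0508 to 0.151), and Mki67 in 2 of 9, without animal 5 or 22 (otherwise 0.0508 to 0.118). Mki67 in A + T vs. S was lost without animal 2, 3, 20 or 21 (adjusted P from 0.0581 to 0.124).

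**Figure D4:**
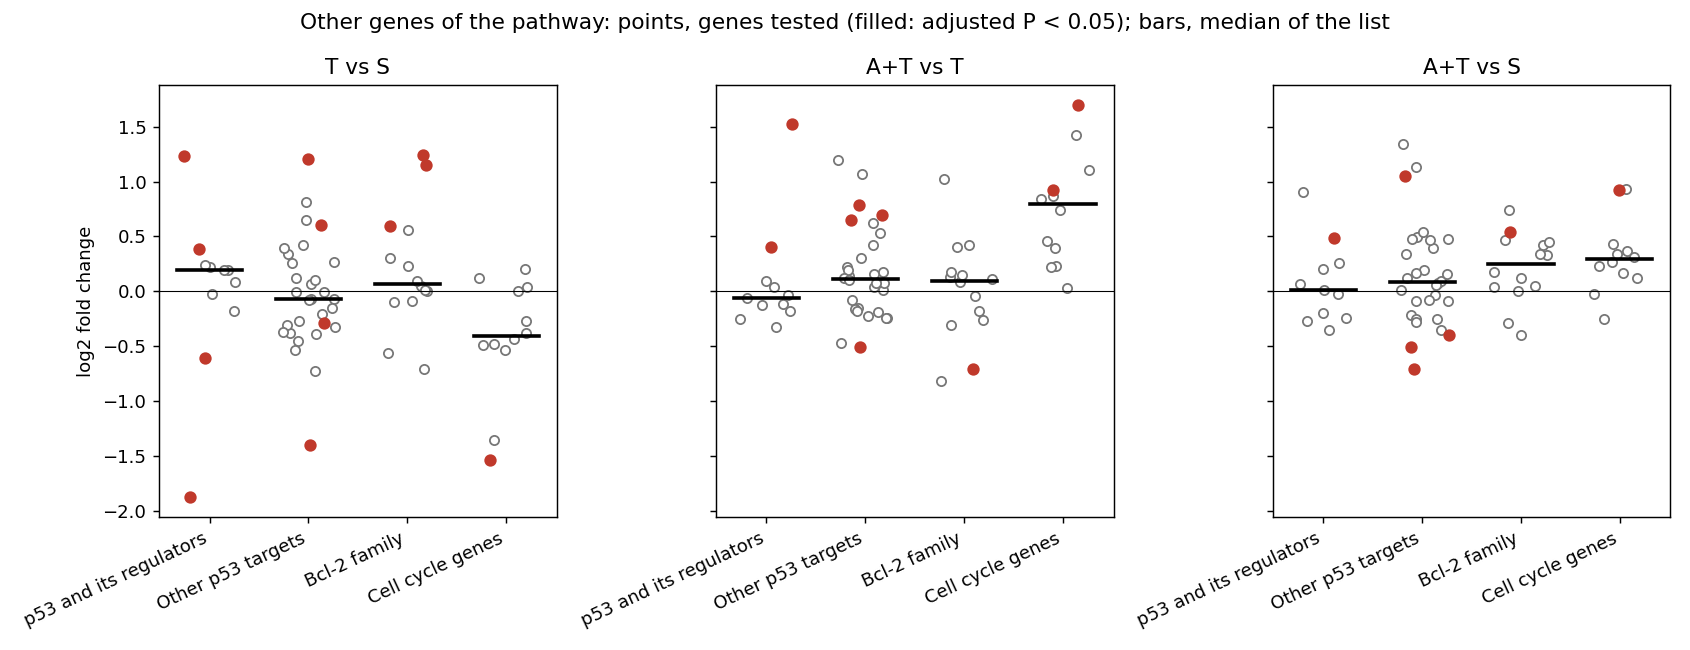
Log2 fold change (y axis) of each tested gene of 4 lists around the members, in each comparison. Filled points have an adjusted P-value under 0.05 and bars are list medians. In every list most points are open, and the cell cycle median lies at -0.41 in T vs. S and 0.79 in A + T vs. T.

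Markers of other cells in the heart moved with the same groups. All 5 fibroblast markers and 4 of 5 endothelial markers fell in T vs. S by edgeR, where 21.2% of all genes were called. Their summed levels ran from 1249 to 1431 CPM (S), 768 to 900 CPM (T) and 957 to 1384 CPM (A + T) for fibroblasts, and from 753 to 873, 435 to 551 and 570 to 673 CPM for endothelium. Macrophage markers rose in A + T, 5 of 7 against T and 6 of 7 against S, where 5.88% and 8.31% of all genes were called. Their sums were 342 to 380 CPM (S), 322 to 421 CPM (T) and 564 to 806 CPM (A + T). Mrc1 went the other way without passing, at -0.31 against T (adjusted P = 0.290 by edgeR) and -0.36 against S (adjusted P = 0.194). In T vs. S, 1 of 7 rose, C1qb, by 0.38 (adjusted P = 0.0469). The part of these markers in the members' values, in Phlda3, Trp53 and Chek2, which were lowest in T like the fibroblast and endothelial sums, and in Mki67, which was highest in A + T like the macrophage sum, was not tested. Cardiomyocyte sums were 59291 to 65540 CPM (S), 45759 to 56652 CPM (T) and 43513 to 59444 CPM (A + T), so that T lay below S. The markers did not fall together. Of the 7 markers, 1 rose in T vs. S (Tnnt2, by 0.34) and 1 fell (Actc1, by 0.90, from 11312 to 6070 CPM). Myh6, the largest part of the sum, went from 23637 to 15838 CPM (log2 fold change -0.58, adjusted P = 0.0832 by edgeR). Tnni3, Myl2, Myl3 and Ryr2 lay between -0.14 and 0.04. The Tnnt2 call was kept in 2 of 9 fits without 1 library. Atrial markers varied by library, with sums of 3000 to 3084 CPM (S), 861 to 4554 CPM (T) and 793 to 2055 CPM (A + T). In T vs. S, 1 of 5, the atrial ligand gene Bmp10, fell (adjusted P = 0.0135 by edgeR), and 4 of 5 were lower without both airway-bearing libraries. Of the T hearts, animal 15 had the fewest counts of the atrial light chain Myl4 (309, against 2656 in animal 11 and 9527 in animal 12), and animal 12 the most of the adipocyte genes Adipoq (263, against 21 and 2) and Cfd (836, against 52 and 11). Animal 15 was also the lowest and animal 12 the highest T heart for Gadd45b, Gadd45g, Phlda3 and Bbc3, and the part of these markers in those values was not tested. No adipocyte marker passed by edgeR or DESeq2 in any comparison, and 0 had an unadjusted P under 0.05. Without both airway-bearing libraries, each comparison of A + T kept its 1 member call, and 6 of 7 remained in T vs. S. Several list counts changed in the same run. In T vs. S, 3 cell cycle genes and 5 endothelial markers fell, and 4 Bcl-2 genes rose. In A + T vs. T, 1 cell cycle gene, 1 of p53 and its regulators and 2 other p53 targets rose. There 0 endothelial markers rose and 2 Bcl-2 genes fell. In A + T vs. S, 2 of p53 and its regulators rose and 3 endothelial markers fell.

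The genes whose log2 CPM over the 9 libraries was most like that of a member were sought across the table, as a description of 9 points that include the group differences. For Cdkn1a these were Ube2g2 (Pearson r 0.98), Ell (0.98) and Trim54 (0.96), for Sesn1 Anapc4 (0.98), Prps1 (0.98) and Zfp945 (0.98), and for Ccng1 Aifm1 (0.98), Casq2 (0.97) and Fam131c (0.97). Mdm2 was nearest to Alpk1 (0.96), Banp (0.95) and Acot7 (0.95), and Phlda3 to Syde1 (0.98), Aldh3b3 (0.98) and Cdh11 (0.97). Aldh3b3 was near the floor, with means of 1.07 CPM in S, 0.259 CPM in T and 0.514 CPM in A + T and a lowest count of 0. Gadd45a was nearest to Atg14 (0.95), Zfp949 (0.95) and Pik3ip1 (0.95), and Gadd45b to Hexa (0.96), 2610301B20Rik (0.96) and Parn (0.94). No member was among the 3 nearest genes of these 7 members.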

How the data were processed

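RNA of 9 hearts, 3 each labelled S, T and A + T, was analysed. The authors kept RNA with an integrity number of 7 or more, made stranded mRNA libraries, aligned paired reads to mm10 with STAR, assigned unique alignments by strand to RefSeq genes with featureCounts, and deposited raw counts per gene. They also deposited log2 normalized values, which differed from log2 CPM by a constant per gene (median SD 1.66e-05) and served to compare levels between genes and, with limma, as an alternative test. Lines without a gene symbol (3443, all empty) were left out.

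Genes under 0.5 CPM in more than 4 libraries (526) were removed. Counts were fitted with edgeR 4.0.16 (R 4.3.3) by the quasi-likelihood test with TMM scaling and all 9 libraries, and P-values were Benjamini-Hochberg adjusted over 13364 genes with a threshold of 0.05. Limma 3.58.1 and DESeq2 1.42.0 were alternatives, and scripts were tested on simulated data. CPM in the text are TMM-scaled. The labels give animal numbers, so P-values measure the spread between animals. Counting limits cover counting error only, without molecular identifiers.

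The members and lists were chosen with earlier results of these data known. List genes are named where they passed the threshold, at most 3 rises and 3 falls per list and comparison, and the 3 nearest genes by Pearson correlation for members that passed. Ccng2 and Ccni in A + T vs. T, and the counts of Bbc3, Top2a, Myl4, Adipoq and Cfd, were chosen after their values were seen. The same holds for Mrc1 in A + T and for Myh6, Tnni3, Myl2, Myl3 and Ryr2 in T vs. S.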

Additional observations from a re-analysis of the deposited data

How the results depend on the processing

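The 7 member calls of T vs. S became 3 with scaling by library totals only and 3 at the study's thresholds, both without Mdm2, Ccng1, Sesn1 and Gadd45a, and ranged from 2 to 7 without 1 library, with 2 calls left without animal 3 of S or without animal 11 of T. The call in A + T vs. T was Cdkn1a in every alternative run. The 1 call of A + T vs. S became 5 with DESeq2 and 5 at an adjusted P-value under 0.1 (adding Mdm2, Ccng1, Sesn1 and Gadd45b), 3 with the edgeR likelihood ratio test, 2 with limma-voom, 2 with only the groups compared, 2 at the study's thresholds, 0 with library totals only and 0 to 2 without 1 library. The cause of these changes was not tested. Of the single fold changes under an alternative, 626 kept their direction and side of the threshold, 37 lost it, 14 gained it and 13 changed sign, all 13 in differences that had not passed. The runs at the study's thresholds and at an adjusted P-value under 0.1 reused the main fit, so no direction could change there. A library outside a comparison enters it only through the scaling and the shared spread. The 626 therefore do not count independent checks. Without both airway-bearing libraries, an alternative chosen after seeing the data, Mdm2 was -0.029 and Gadd45b 0.0097 in A + T vs. T, and Bbc3 -0.11 in A + T vs. S. Without 1 library, A + T vs. T ranged from -0.0052 to 0.089 for Mdm2, -0.35 to 0.18 for Gadd45b, -0.058 to 0.10 for Ccng1 and -0.11 to 0.25 for Gadd45a, and A + T vs. S from -0.11 to 0.17 for Bbc3. No paired analysis was possible because the animals of the 3 groups share no numbers. Depth limits the low members most, Bbc3 and Phlda3, with 26 to 97 and 25 to 164 counts per library.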
